A study of Saccharomyces cerevisiae with 20 samples.

Results

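The genes described here are those of 32 subunits of the yeast 26S proteasome and RPN4 (YDL020C), whose product activates their transcription. They were chosen by name, without use of any measured value, and make up 33 of the 6921 genes listed in the tables. All 33 were listed in all 8 tables and all 33 passed the filter on low counts in every comparison. The 7 subunits of the α ring, the 7 of the β ring and the 6 ATPases are treated as separate lists. So are the 4 other subunits of the base and its hinge, and 8 subunits of the lid. SEM1, which encodes a further small protein of the lid, is counted with the other genes of the pathway.

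RNA was sequenced from the budding yeast W303 RAD5+ in 5 strains: wild type and strains in which TUP1, SDS3, XBP1 or ISW2 had been replaced by an antibiotic resistance marker, written Δtup1, Δsds3, Δxbp1 and Δisw2. Tup1 is a corepressor, Sds3 is a subunit of the Rpd3L histone deacetylase complex, Xbp1 is a DNA-binding repressor induced by stress and starvation, and Isw2 is a chromatin remodeler. Every strain grew in YPD at 30 °C and was harvested at diauxic shift (DS), 2 hours after glucose could no longer be detected, and at stationary phase (SP), after 3 days. Each of the 10 groups so formed had 2 libraries, called A and B, which makes 20. The stationary cultures were taken whole, without purification of quiescent cells, and Δtup1 cells clump. In such bulk samples fewer cells with a transcript and less of it per cell cannot be told apart.

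The proteasome degrades proteins tagged with ubiquitin. Its 20S core is a barrel of stacked rings, in which the outer α rings gate the entrance and the inner β rings carry the proteolytic sites of Pre3 (β1), Pup1 (β2) and Pre2 (β5). The 19S regulatory particle on its end holds a ring of ATPases, Rpt1 to Rpt6, that unfold the substrate, ubiquitin receptors such as Rpn1, Rpn10 and Rpn13, and a lid whose subunit Rpn11 removes the ubiquitin chain. Rpn4 binds a promoter element shared by most of these genes and is itself a short-lived substrate of the proteasome, so that loss of activity stabilizes the activator and raises the subunit transcripts. In yeast that runs out of glucose, proteasomes leave the nucleus and collect in cytoplasmic storage granules.

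The element bound by Rpn4 is shown first, since it is what these promoters share in sequence and the subunits that carry it did not all move alike in the deletion strains. It was searched on both strands in the window from 250 bases before to 50 bases after the start codon. The sites of the 7 β ring genes, of the ATPase genes RPT1 and RPT6, of the α ring gene SCL1 and of the lid genes RPN11 and RPN8 are printed 5′ to 3′ on the strand that carries the element, with 10 bases on either side. Capitals mark the element.
PRE3: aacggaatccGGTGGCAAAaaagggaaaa
PUP1: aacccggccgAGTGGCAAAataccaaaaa
PUP3: tggcactgccGGTGGCAAAaaagtgcaaa
PRE1: aaatctttacGGTGGCAAAaaataaagaa
PRE2: acagcaaaagGGTGGCAAAacgaagaata
PRE7: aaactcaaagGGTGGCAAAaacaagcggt
PRE4: acgtatttaaGGTGGCAAAttctaaacca
RPT1: ttagttttcgGGTGGCAAAattcggtaat
RPT6: atgcgagcgaGGTGGCAAAagttgtaata
SCL1: ctatccttacGGTGGCAAAttggtgtgtg
RPN11: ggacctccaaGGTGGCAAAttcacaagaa
RPN8: gggatacctcAGTGGCAAAtcgttactca

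None of these windows overlaps a gene in the RefSeq annotation of R64, the build of the authors' alignments (sacCer3). PRE3 has its window at chrX:435035-435063 on the plus strand, PUP1 at chrXV:631891-631919 on the minus strand, and PUP3 at chrV:349511-349539 on the minus strand. PRE1 has it at chrV:177683-177711, PRE2 at chrXVI:732184-732212 and PRE7 at chrII:141150-141178, all on the plus strand. The windows of PRE4 (chrVI:249959-249987, plus strand), RPT1 (chrXI:174048-174076, minus strand) and SCL1 (chrVII:475337-475365, plus strand) lie on the strand opposite to their genes. RPT6 has its window at chrVII:411352-411380 on the minus strand, RPN11 at chrVI:153259-153287 on the plus strand and RPN8 at chrXV:817085-817113 on the minus strand. The element began 84 bases before the start codon in RPT6, 118 in PRE3, 155 in PRE2 and RPT1, and 183 in PUP3.

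GGTGGCAAA was present in 27 of the 32 subunit promoters (84.4%) and in 72 of all 6007 promoters (1.20%). With any first base (NGTGGCAAA, which includes the former), it was present in 30 of 32 (93.8%) against 143 of all promoters (2.38%). PUP1, RPN8 and the α ring gene PRE5 had AGTGGCAAA. The promoters of RPN10 and RPN13 and the promoter of RPN4 itself held no match in this window. The 9 assembly chaperones held none either, while the promoters of UBI4 (polyubiquitin), UBA1 (the ubiquitin-activating enzyme), CDC48, YAP1, ECM29 and CUZ1 held GGTGGCAAA. CTCGAG, the core of the site bound by Xbp1, was in none of the 33 promoters and in 320 of all promoters (5.33%). A match of letters is a description of these windows and not a measured binding site.

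Depth was even at DS, with 20963633 to 32558227 reads on genes per library. At SP, library A of the groups had 9994448 to 28421881 reads and library B 2543155 to 4424289, and library B of each deletion carries another strain number than library A. The deleted genes matched the labels: in the libraries of its own deletion TUP1 had 0 to 8 reads, SDS3 0 to 1, XBP1 0 to 2 and ISW2 1 to 4, against at least 144 in wild type. The 2 libraries of Δsds3 at DS stood apart from each other, with 36.2% of genes at least 2-fold apart, against 0.494% to 5.07% in the other groups. All deletions of a phase were compared with the same 2 wild type libraries, so the comparisons of a phase are not independent. The labels call the libraries replicates, and p-values measure only the spread between the 2 libraries of a group, with a variance shared over genes by limma.

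In wild type, the 32 subunit transcripts were of similar abundance within a library. Levels of different genes are compared here in TPM, for which reads are divided by coding length and scaled to a fixed sum per library. The most abundant subunit transcript was 3.84 to 5.87 times the least abundant in the 4 wild type libraries, and the subunits summed to 5439 and 4597 TPM at DS and to 5019 and 5221 TPM at SP. RPN4 stood at 160 and 127 TPM at DS and at 124 and 209 TPM at SP, which was 0.966 and 1.01 times the median subunit at DS and 0.803 and 1.24 times at SP. Its level thus lay among those of its targets, and the 2 SP libraries differed from each other more than the phases did.

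**Figure D1:**
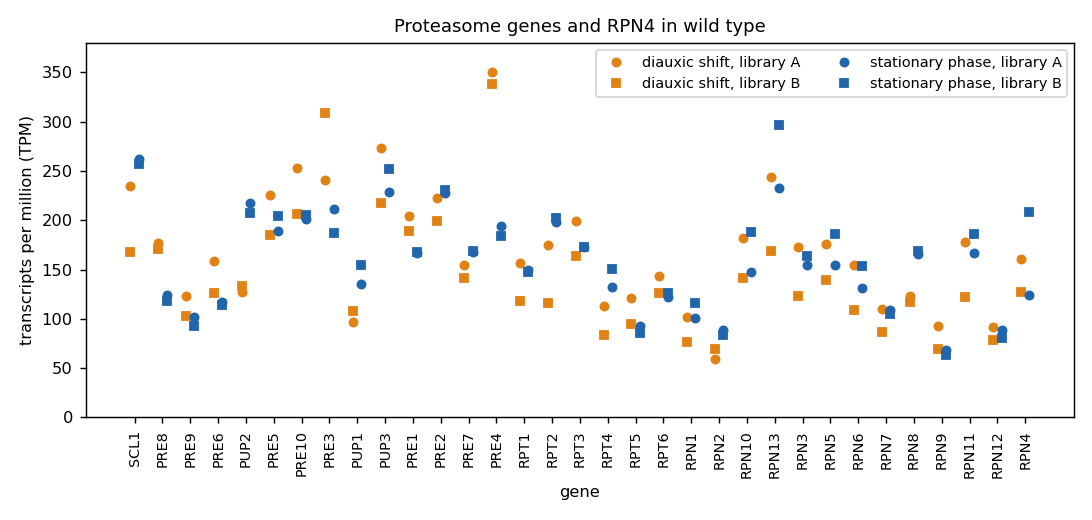
Level of each proteasome gene and of RPN4 in TPM in the 4 wild type libraries, with circles for library A and squares for library B. PRE4 is the gene whose 2 SP points (194 and 184 TPM) lie farthest below its DS points (350 and 338 TPM).

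From DS to SP, the wild type transcripts of the proteasome were nearly level. In a joint fit of all 20 libraries, 0 of the 33 genes were higher (background of all 6531 genes tested 7.85%) and 1 was lower (background 8.30%) at SP, at a Benjamini-Hochberg adjusted p under 0.05 and at least 1.5-fold. The median subunit changed by 0.0073 on the log2 scale, and the range was -0.98 to 0.60. The lower gene was PRE4 (YFR050C), a β ring subunit, with joint normalized counts of 4840 and 5403 at DS and 2637 and 2559 at SP (log2 fold change -0.98, SE 0.22, adjusted p = 0.0104). The SP values lay well below both DS values, but the call was lost without library B of wild type at either phase.

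RPN4 had joint normalized counts of 4412 and 4035 at DS and 3352 and 5797 at SP (log2 fold change 0.06, SE 0.43, adjusted p = 0.938), and the phases overlapped. PUP2 of the α ring gave the largest positive estimate (0.60, adjusted p = 0.429). Only 2 of the 33 genes had an unadjusted p under 0.05, PRE4 and the α ring gene PRE8 (adjusted p = 0.0969). DESeq2 and edgeR's quasi-likelihood test each called 0 higher and 1 lower.

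In Δtup1, most subunit transcripts were below wild type, and RPN4 was called above it at SP only. At DS, 0 of the 33 genes rose (background 13.8% of 6295 genes tested) and 5 fell (background 6.27%). An unadjusted limma p under 0.05 was reached by 12 genes, all lower, while DESeq2 called 0 higher and 8 lower and edgeR 0 and 5. The 5 were the β ring genes PUP1, PRE1 (YER012W), PRE2 (YPR103W) and PRE4 and the ATPase gene RPT1 (YKL145W). Of the 32 subunits, 30 had a log2 fold change below 0 with a median of -0.45, against 51.1% of all genes and a median of -0.02.

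RPT1, an ATPase of the base, had normalized counts of 7171 and 5983 in wild type and 3204 and 3516 in Δtup1 at DS (log2 fold change -0.96, SE 0.31, adjusted p = 0.0305). PRE2, which carries the chymotrypsin-like site, had 6272 and 6236 against 3166 and 3327 (-0.95, SE 0.30, adjusted p = 0.0317). PRE4 had 9159 and 9807 against 6024 and 4012 (-0.95, SE 0.32, adjusted p = 0.0422). In each of these genes both Δtup1 libraries lay below both wild type libraries. PRE1 (-0.94) and PUP1 (-0.89), which carries the trypsin-like site, had adjusted p of 0.0306 and 0.0392.

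RPN4 had 8350 and 7324 normalized counts in wild type and 8693 and 15667 in Δtup1 at DS (0.58, SE 0.34, adjusted p = 0.247). Both Δtup1 libraries were above both wild type libraries on this scale, one of them only slightly, and the change was not called. In TPM RPN4 stood at 126 and 235 in Δtup1 against 160 and 127 in wild type, and the groups overlapped. By list, the median log2 fold change at DS was -0.38 in the α ring, -0.89 in the β ring, -0.45 in the ATPases, -0.24 in the other base subunits and -0.45 in the lid. Besides RPN4, only the ATPase gene RPT6 (0.46) and the scaffold gene RPN2 (0.21) had positive estimates, neither called.

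The DS calls in Δtup1 are close to the threshold. Without any 1 library 0 or 1 of the 5 was called, and 14 subunits were called lower when libraries were scaled by total reads, where the median of all genes was -0.33 and that of the subunits -0.76. That scaling also turned the split of all genes from 869 higher and 395 lower to 630 higher and 1152 lower.

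At SP in Δtup1, of the 33 genes 2 rose (background 25.7% of 6035 genes tested) and 12 fell (background 24.0%). RPN4 and RPT6 (YGL048C) rose, and all 7 β ring genes were among those that fell. The remaining 5 were the α ring genes PUP2 and PRE6, the ATPase gene RPT1, RPN1 (YHR027C), the large scaffold and ubiquitin receptor of the base, and RPN3 of the lid. Of the 32 subunits 27 had an estimate below 0 and the median was -0.47, against 49.9% and 0.0025 for all genes.

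RPN4 had 2091 and 3638 normalized counts in wild type and 6721 and 9262 in Δtup1 at SP, a 2.86-fold rise (log2 fold change 1.52, SE 0.28, adjusted p = 9.99e-04). RPT6 had 1570 and 1683 against 3299 and 2880 (0.92, SE 0.20, adjusted p = 0.00276). In both genes the groups did not overlap, although the wild type libraries differed 1.74-fold in RPN4. These 2 were higher in every alternative fit, and without any 1 library the RPN4 estimate ran from 1.12 to 1.92.

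PRE3 (YJL001W), which carries the caspase-like site, had 1451 and 1320 normalized counts in wild type and 669.9 and 422.3 in Δtup1 at SP, a 2.60-fold fall (-1.38, SE 0.24, adjusted p = 7.82e-04). PUP1 had 1122 and 1328 against 637.7 and 464.1 (-1.16, SE 0.23, adjusted p = 0.0014). PUP2 had 1802 and 1772 against 918.3 and 891.3 (-0.98, SE 0.19, adjusted p = 0.00163). All 3 genes were clearly separated, with the higher Δtup1 library at most at 669.9, 637.7 and 918.3 normalized counts.

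The other called β ring genes were PRE1 (-0.93), PRE2 (-0.86), PRE4 (-0.67), PRE7 (-0.63) and PUP3 (-0.62), with adjusted p from 0.0029 to 0.0445. RPN1 (-0.90), RPN3 (-0.85), PRE6 (-0.69) and RPT1 (-0.61) had adjusted p from 0.00444 to 0.0262. The β ring had a median log2 fold change of -0.86 (range -1.38 to -0.62), the α ring -0.32 (range -0.98 to 0.01), the ATPases -0.43, the other base subunits 0.05 and the lid -0.35. The β ring list therefore lay lower than the other lists, and the difference between lists was not tested.

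**Figure D2:**
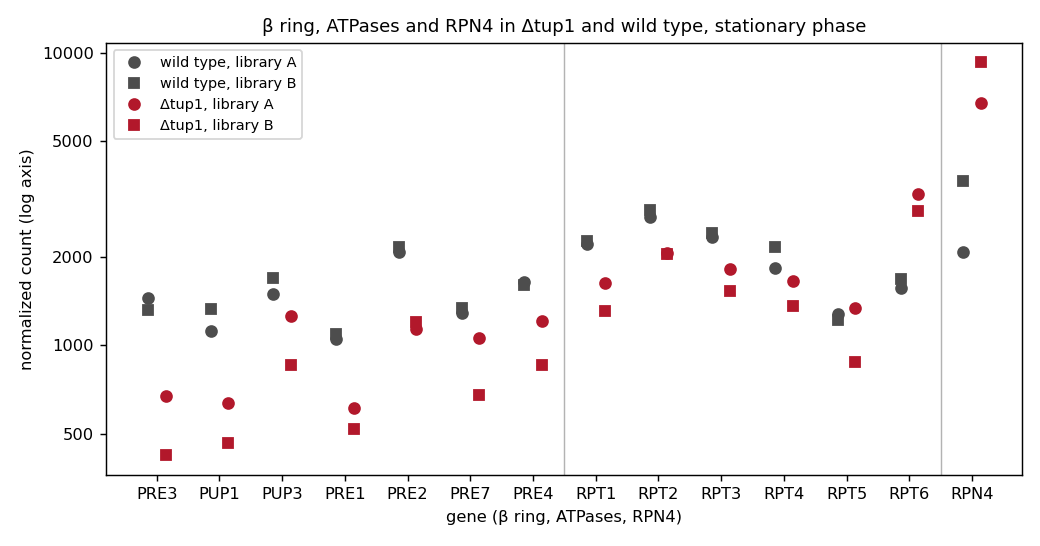
Normalized counts of the β ring genes, the ATPase genes and RPN4 at SP on a log axis, in wild type (grey) and Δtup1 (red), with circles for library A and squares for library B. In all 7 β ring genes both Δtup1 points lie below both wild type points, while in RPT6 and RPN4 both lie above.

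The number of genes that fell depended on single libraries: it was 7 without either wild type library, 8 without library B of Δtup1 and 15 without its library A. PRE6, PUP3, PRE7, PRE4 and RPT1 were the calls lost in each of the first 3 of these fits.

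Ratios within a library do not depend on how libraries are scaled to each other. RPN4 stood at 3.20 and 5.52 times the median subunit in TPM in Δtup1 at SP, against 0.803 and 1.24 times in wild type, and at 1.65 and 2.76 times at DS, against 0.966 and 1.01. RPT6 stood at 2.14 and 2.28 times the median of the other 5 ATPases in Δtup1 at SP and at 2.02 and 2.25 times at DS. In wild type the same ratio was 0.816 and 0.839 at SP and 0.916 and 1.09 at DS. All 4 Δtup1 libraries were thus above all 4 wild type libraries in both ratios. At DS the denominators were lower in Δtup1: the median subunit stood at 76.4 and 85.1 TPM against 166 and 126 in wild type. The median of the other 5 ATPases stood at 65.0 and 75.3 TPM against 156 and 116. RPT6 itself overlapped at DS, with 131 and 169 TPM in Δtup1 against 143 and 126, and so did RPN4 in TPM. The RPT6 ratio was 0.803 to 1.13 in the libraries of the other deletions, with the exception of library B of Δsds3 at DS (2.06).

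The summed β ring came to 0.828 and 0.766 times the summed α ring in Δtup1 at SP and to 1.10 and 1.12 times in wild type. In the other deletions at SP this ratio was 1.02 and 0.986 (Δsds3), 1.04 and 1.04 (Δxbp1) and 1.12 and 1.16 (Δisw2). The 20S core as a whole came to 0.795 and 0.699 times the 19S particle in Δtup1 at SP and to 1.03 and 0.950 times in wild type. At DS the β to α ratio was 1.08 and 0.959 in Δtup1 and 1.19 and 1.38 in wild type. The core to regulatory particle ratio overlapped at DS, with 1.18 and 0.867 in Δtup1 and 1.10 and 1.30 in wild type. Summed over the 32 subunits, the level in Δtup1 was 2816 and 2944 TPM at DS and 4489 and 3859 TPM at SP, below wild type at both phases.

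Growth phase markers also moved in Δtup1. Of 11 such genes, 3 rose and 2 fell at DS and 4 rose and 2 fell at SP, among them HXT3, a glucose transporter gene, which rose at DS (log2 fold change 4.53) and SP (3.98). ADH2, called lower at DS, overlapped between the groups, since the wild type DS libraries, which serve every DS comparison, were far apart in it (4347 and 70792 normalized counts), as they were in FBP1 (11907 and 33597) and ICL1 (8007 and 24854). The part of these genes in the proteasome values was not tested.

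**Figure D3:**
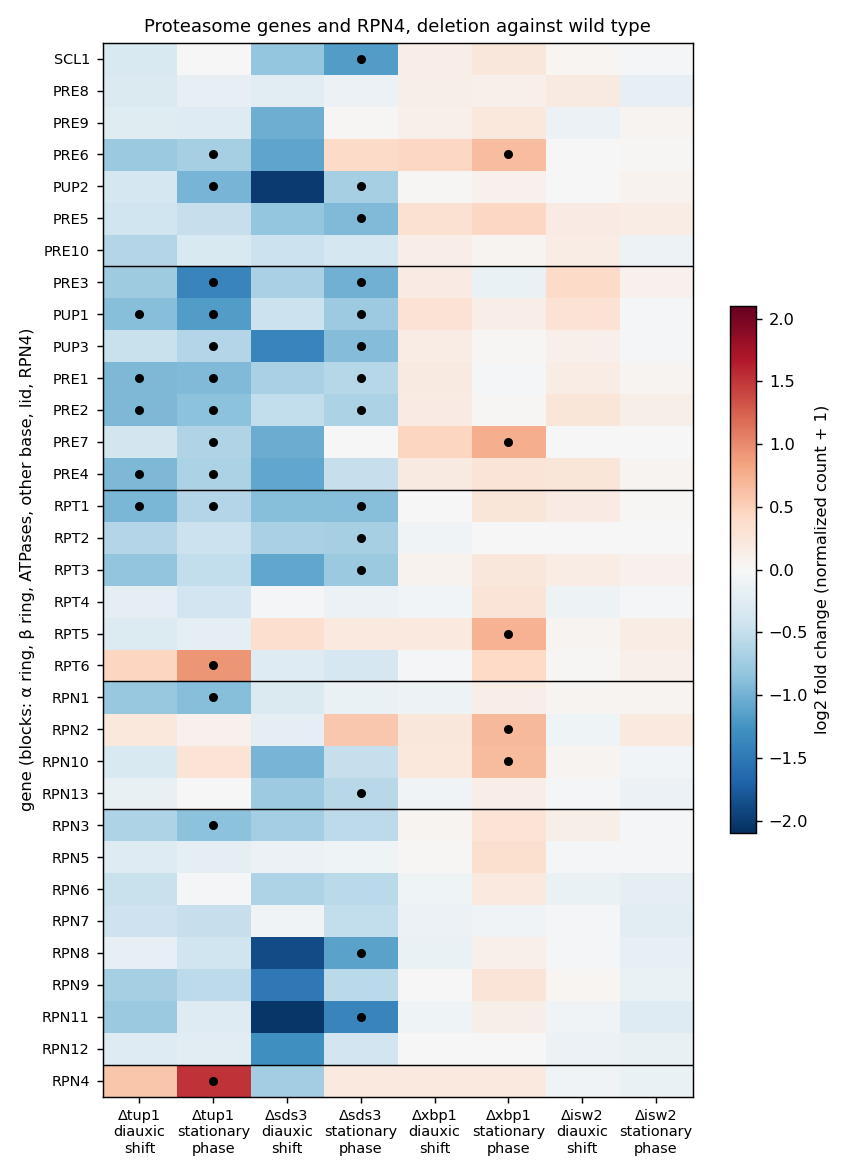
Log2 fold change of each proteasome gene and RPN4 (rows, in blocks of α ring, β ring, ATPases, other base, lid and RPN4) in each deletion against wild type of the same phase (columns), on log2 of normalized count plus 1; dots mark calls at adjusted p under 0.05 and at least 1.5-fold. Dots fill the whole β ring block in Δtup1 at SP, are spread over all 5 subunit blocks in Δsds3 at SP, mark 5 higher genes in Δxbp1 at SP and are missing from both Δisw2 columns.

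In Δsds3 at SP, 14 subunits fell and none of the 33 genes rose on the deposited scale (background 25.4% lower and 27.6% higher of 6211 genes tested). At an unadjusted p under 0.05 limma had 2 higher and 23 lower, DESeq2 called 0 higher and 14 lower and edgeR 1 and 12. The 14 were spread over the complex, with 3 of the α ring, 5 of the β ring, 3 ATPases, RPN13 of the base and 2 of the lid. The median subunit changed by -0.55, with 28 of 32 below 0, while the median of all genes was close to 0 (3.35e-05).

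RPN11 (YFR004W), the deubiquitinase of the lid, had 2036 and 2285 normalized counts in wild type and 886.5 and 769.2 in Δsds3 at SP, a 2.61-fold fall (log2 fold change -1.38, SE 0.15, adjusted p = 2.8e-05). SCL1 (YGL011C) of the α ring had 2638 and 2594 against 1186 and 1126 (-1.18, SE 0.14, adjusted p = 4.94e-05). RPN8 (YOR261C), the partner of Rpn11 in the lid, had 2240 and 2289 against 965.6 and 1129 (-1.12, SE 0.15, adjusted p = 9.75e-05). The libraries of each group were close to each other in these genes, and the groups were far apart.

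PRE3 fell 2.01-fold (adjusted p = 1.78e-04). The other genes that fell were PRE5 (-0.93), PUP3 (-0.91), RPT1 (-0.89), RPT3 (-0.78), PUP1 (-0.77), PUP2 (-0.70), RPT2 (-0.70), PRE2 (-0.67), PRE1 (-0.59) and RPN13 (-0.59), with adjusted p from 2.57e-04 to 0.00988. RPN2 (0.57, adjusted p = 0.00754) and PRE6 (0.40, adjusted p = 0.0296) had positive estimates short of 1.5-fold. RPN4 had 2621 and 4436 normalized counts in wild type and 3954 and 3915 in Δsds3 at SP (0.21, SE 0.22, adjusted p = 0.44), and the groups overlapped. Subunits of one ring therefore had estimates of both signs, as with SCL1 and PRE6 of the α ring.

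The size, the calls and, for some genes, the direction of the Δsds3 result at SP depend on the scaling of the libraries. With scaling by total reads the median of all genes shifted to 0.56 and that of the subunits to 0.0075, the split of all genes went from 1714 higher and 1580 lower to 2882 higher and 661 lower, only SCL1 and RPN11 of the 14 were still called lower, although all 14 kept estimates below 0, and 4 of the 33 genes were called higher, with RPN4 at 0.77 (adjusted p = 0.00864). In TPM the subunits summed to 6404 and 6808 in Δsds3 at SP against 5019 and 5221 in wild type, and RPN4 stood at 331 and 353 TPM against 124 and 209. The median subunit was likewise above wild type, at 194 and 204 TPM against 154 and 169. Genes called lower on the deposited scale went both ways in TPM. PRE1 stood at 202 and 207 against 167 and 168, and SCL1 at 209 and 213 against 262 and 257.

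Within a library, RPN11 stood at 0.661 and 0.589 times the median subunit in Δsds3 at SP, against 1.08 and 1.11 times in wild type. RPN4 stood at 1.70 and 1.73 times the median subunit, above both wild type libraries (0.803 and 1.24). Neither ratio overlapped between the groups, and neither depends on the scaling. Of the growth phase markers, 7 of 11 fell and 2 rose in Δsds3 at SP, among them HSP12 (-2.75) and HSP26 (-2.89), and their part in the proteasome values was not tested.

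At DS, Δsds3 gave no called gene among the 33 (background 1.94% higher and 0.852% lower of 6340 genes tested), with 10 at an unadjusted p under 0.05. DESeq2 called 2 lower and edgeR 0. On the deposited scale the subunits had a median of -0.74 with 31 of 32 below 0, against -0.06 for all genes. With scaling by total reads these medians were -0.42 and 0.25, and all genes split 53 higher and 13 lower in place of 123 and 54. In TPM the subunits of Δsds3 summed to 5794 in library A, above both wild type libraries (5439 and 4597), and to 3933 in library B. Of the 33 genes, 14 were at least 2-fold apart between libraries A and B of Δsds3, and 0 of the 33 in any other group.

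RPN11 had 6101 and 4571 normalized counts in wild type and 2057 and 799.0 in Δsds3 at DS (-2.04, SE 0.53, adjusted p = 0.075). PUP2 had 3689 and 4227 against 2342 and 410.9 (-2.01, SE 0.74, adjusted p = 0.156), a 5.70-fold gap between the Δsds3 libraries. RPN4 had 9496 and 8197 against 9670 and 2937 (-0.73, SE 0.60, adjusted p = 0.492). On this scale library A of Δsds3 was thus at the wild type level in RPN4 and library B well below it. RPN11 was below wild type in both. In TPM, RPN4 stood at 296 and 57.2 in Δsds3 against 160 and 127 in wild type. Relative to the median subunit, RPN4 stood at 1.68 and 0.546 times, against 0.966 and 1.01 times in wild type. By these 2 measures library A was above wild type in RPN4.

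The calls of this comparison turn on which Δsds3 library is kept. Without library A, 1 gene was called higher and 15 lower, with RPN4 at -1.59 (adjusted p = 3.33e-04), while all genes went from 123 higher and 54 lower to 1183 and 1362 of 6340. Without library B, 0 were higher and 10 lower, with RPN4 at 0.13, and all genes stood at 1061 higher and 966 lower. In both fits the lone Δsds3 library is assumed to vary as the wild type libraries do.

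**Figure D4:**
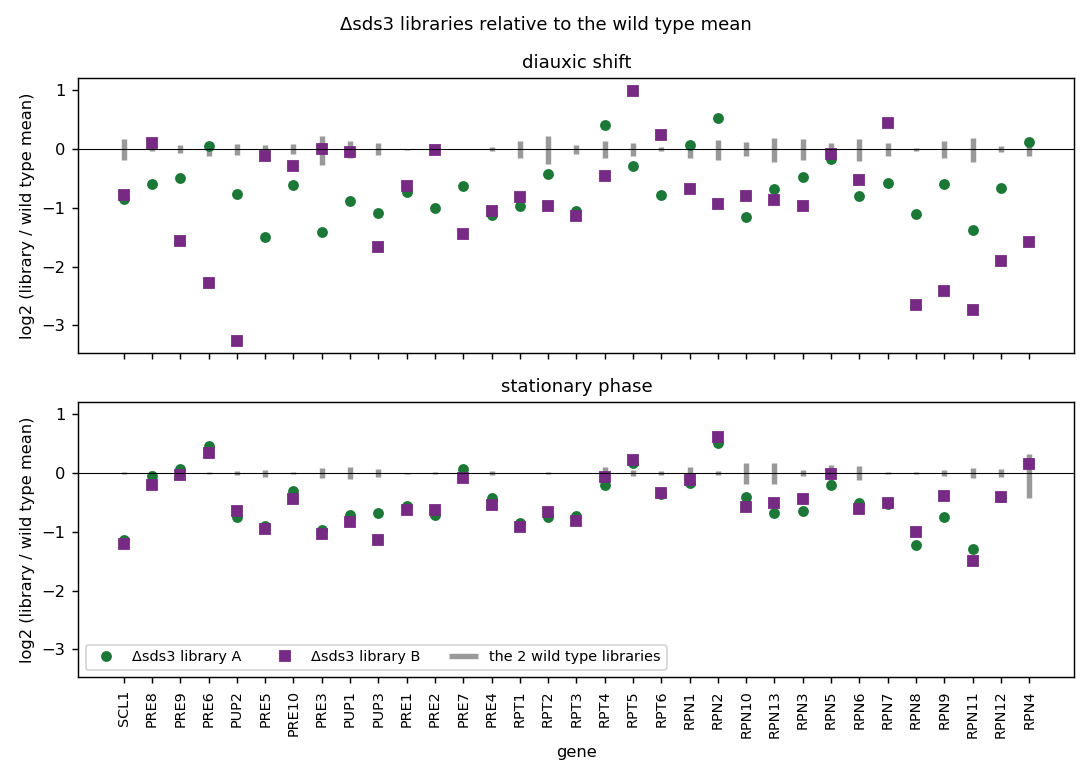
Each Δsds3 library as the log2 of its normalized count over the wild type mean, at DS (upper panel) and SP (lower panel), with green circles for library A, purple squares for library B and grey bars for the span of the 2 wild type libraries. At DS the 2 Δsds3 points of many genes are far apart, with PUP2 the widest at 5.70-fold, and at SP they nearly coincide, with the widest gap 1.38-fold in PUP3.

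In Δxbp1 at SP, 5 of the 33 genes rose (background 12.3% of 5968 genes tested) and 0 fell (background 11.5%, 0 of the 33 by DESeq2 and by edgeR, and 0 lower at an unadjusted p under 0.05). The share that rose is near its background, so the number of rises does not by itself set these genes apart. The 5 came from 4 lists: PRE7 (YBL041W) of the β ring, PRE6 (YOL038W) of the α ring, the ATPase gene RPT5 (YOR117W), and RPN2 and RPN10, a scaffold and a ubiquitin receptor of the base. The median subunit changed by 0.22, with 4 of 32 below 0, against -0.0091 for all genes.

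PRE7 had 1190 and 1199 normalized counts in wild type and 1831 and 2227 in Δxbp1 at SP (log2 fold change 0.76, SE 0.15, adjusted p = 0.00322). RPT5 had 1180 and 1092 against 1821 and 1965 (0.74, SE 0.15, adjusted p = 0.0028). RPN2 had 2455 and 2334 against 3474 and 4198 (0.67, SE 0.16, adjusted p = 0.00798). The groups did not overlap in any of these, and the rises were of 1.59- to 1.69-fold.

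RPN10 (0.67, adjusted p = 0.0121) and PRE6 (0.65, adjusted p = 0.00561) also rose, and the other 27 subunits lay between -0.14 and 0.43. RPN4 had 1925 and 3259 normalized counts in wild type and 2808 and 2968 in Δxbp1 at SP (0.20, SE 0.21, adjusted p = 0.506), between the wild type values. Relative to the median subunit in TPM, RPN4 stood at 1.02 and 0.980 times, within the wild type range. Without library B of Δxbp1, 2 of the 5 calls were left, PRE7 and RPT5. With scaling by total reads, which moved the median of all genes to 0.14 and the split of all genes from 737 higher and 687 lower to 1003 higher and 454 lower, the same 5 were called.

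The subunits summed to 7404 and 7424 TPM in Δxbp1 at SP, above wild type (5019 and 5221). The size of this rise depends on the scaling, since TPM has a fixed sum per library. The median subunit changed by 0.22 on the deposited scale and by 0.36 with scaling by total reads. At DS, none of the 33 genes was called in Δxbp1 (background 0.432% higher and 0.0320% lower of 6243 genes tested), 0 had an unadjusted p under 0.05, and DESeq2 and edgeR called 0. PRE7 (0.45, SE 0.21, adjusted p = 0.695) and PRE6 (0.44, SE 0.22, adjusted p = 0.738) had the highest estimates there too. RPN4 had 8187 and 7204 normalized counts against 8625 and 9013 at DS (0.20, SE 0.21, adjusted p = 0.928).

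In Δisw2 no proteasome gene was called at either phase. At DS the background was 0.0640% higher and 0.0320% lower of 6247 genes tested, and at SP 1.21% higher and 0.706% lower of 5953 genes tested. At both phases 0 of the 33 genes had an unadjusted p under 0.05, and DESeq2 and edgeR called 0. RPN4 had 8687 and 7717 normalized counts in wild type and 6487 and 9257 in Δisw2 at DS (-0.08, SE 0.25, adjusted p = 0.999), and 1939 and 3309 against 2287 and 2337 at SP (-0.13, SE 0.22, adjusted p = 0.849). The groups overlapped at both phases. The 33 estimates ran from -0.15 to 0.40 at DS, with PRE3 the highest (adjusted p = 0.999), and from -0.27 to 0.21 at SP, with RPN11 the lowest (adjusted p = 0.443).

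**Figure D5:**
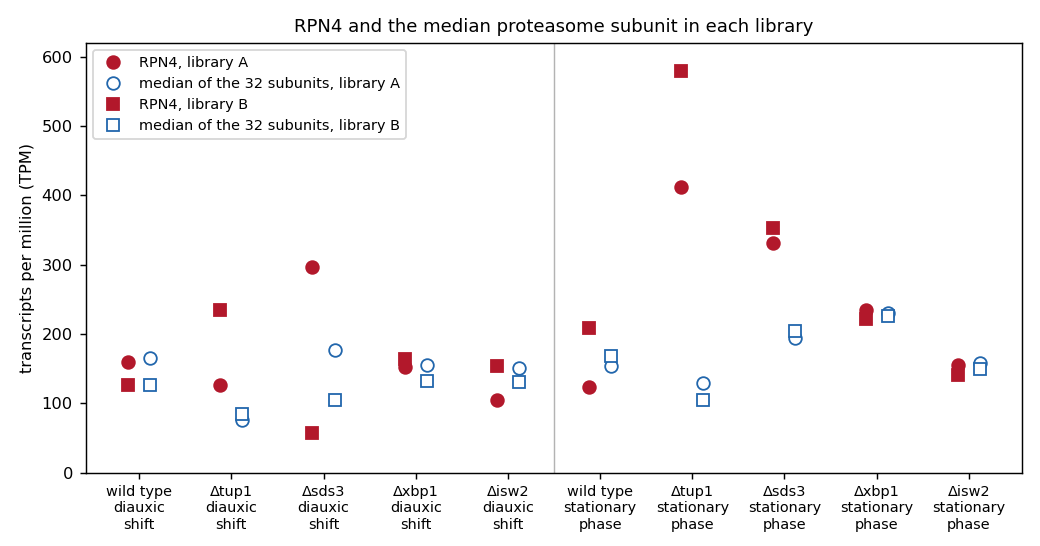
Level of RPN4 (filled red) and of the median of the 32 subunits (open blue) in TPM in every library, with circles for library A and squares for library B. In both Δtup1 libraries at SP RPN4 (412 and 580 TPM) is far above the median subunit, and at DS the 2 Δsds3 libraries are far apart (296 and 57.2 TPM).

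Whether the effect of a deletion differed between the phases was tested with an interaction term over all 20 libraries. No member was called for Δtup1 (background 5.93% of 6531 genes tested, in either direction), Δsds3 (2.04%), Δxbp1 (0.0153%) or Δisw2 (0%, or 0 genes). Of the 33, 3 had an unadjusted p under 0.05 for Δsds3 and 0 for the other deletions, and DESeq2 and edgeR called 0 for each. For RPN4 the effect of Δtup1 was 0.96 larger at SP than at DS on the log2 scale (SE 0.61, adjusted p = 0.357). The larger number of genes called at SP than at DS in Δtup1 is therefore not shown to be a difference between the phases. Without library A of Δsds3 at DS, 10 of the 33 were called higher and 5 lower in the Δsds3 interaction, and all genes went from 57 higher and 76 lower to 1069 and 837 of 6531.

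The other genes of the pathway were taken as 7 lists of 53 genes: assembly chaperones, associated proteins, ubiquitin and its activating enzyme, conjugating enzymes, ligases, Cdc48 and shuttle factors, and regulators of RPN4. In Δtup1 at DS 0 of the 53 rose by limma (3 at an unadjusted p under 0.05) and 6 fell (11.3%, against 6.27% of all genes), namely PBA1 (-1.04), UBP6 (-1.08), SEM1 (-0.97), UBA1 (-1.24), UBR2 (-0.86) and YAP1 (-0.98). UBR2 encodes the ligase that marks Rpn4 itself for degradation, and YAP1 encodes an oxidative stress factor that activates RPN4. Ubp6 is the deubiquitinase of the proteasome base, and Sem1 is a small protein of the lid.

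In Δtup1 at SP 7 of the 53 rose (13.2%, against 25.7% of all genes) and 20 fell (37.7%, against 24.0%). Among the associated proteins 4 of 8 fell, with FUB1 (-1.68), whose product binds the 20S core, BLM10 (-1.55), which encodes an alternative cap of the core, and UBP6 (-1.33) the farthest. UBR2 had 530.0 and 557.1 normalized counts in wild type and 277.9 and 292.2 in Δtup1 (-0.93, SE 0.21, adjusted p = 0.00346). MUB1, the partner of Ubr2 in Rpn4 degradation, had 2088 and 2558 against 788.1 and 1130 (-1.29, SE 0.23, adjusted p = 8.6e-04). The RPN4 transcript was higher in Δtup1 at SP while those of UBR2 and MUB1 were lower. RAD6, whose product is the conjugating enzyme that works with Ubr2, rose (1.24). All of these are RNA levels, the Rpn4 protein was not measured, and a link between them was not tested.

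Of the regulators of RPN4, YAP1 (-0.97) and HSF1 (-0.88) fell and PDR1 (1.15) rose in Δtup1 at SP. Among the chaperones NAS6 (0.84) rose and PBA1 (-1.16), IRC25 (-1.09) and UMP1 (-0.99) fell. Of the 10 conjugating enzymes 4 rose, led by UBC4 (1.60), UBC7 (1.51) and RAD6 (1.24), and 3 fell, UBC5 (-1.44), UBC6 (-0.81) and UBC13 (-0.65). UBI4 rose (0.87), UBA1 (-1.26), RPL40B (-0.98) and RPL40A (-0.95) fell, 5 of the 10 ligases fell, and none of the 7 Cdc48 and shuttle genes was called. The ubiquitin genes, and likewise UBC4 and UBC5, share sequence, so reads could have been split between them.

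In Δsds3 at SP 6 of the 53 rose (11.3%, against 27.6% of all genes) and 25 fell (47.2%, against 25.4%). FUB1 had 5168 and 5727 normalized counts in wild type and 510.9 and 553.6 in Δsds3, a 10.2-fold fall (-3.35, SE 0.14, adjusted p = 3.21e-07). UBC5 (-2.44), SEM1 (-1.46), HRD1 (-1.40), UBC8 (-1.37) and UBC13 (-1.35) also fell by more than 2-fold. ECM29, whose product holds the core and the regulatory particle together, rose (722.1 and 691.4 against 1886 and 1935, log2 fold change 1.43, SE 0.14, adjusted p = 1.5e-05). UBR2 rose 2.00-fold in Δsds3 (adjusted p = 2.48e-04) where it fell in Δtup1, while MUB1 (-1.13) and YAP1 (-1.25) fell in both. Estimates and calls depend on the scaling here too, also those larger than the shift of 0.56 described above. With scaling by total reads, the subunit RPN8 (-1.12) lost its call, and all genes called lower went from 1580 to 661. Calls of the 53 genes under that scaling are not given. At DS limma called 0 of the 53 in Δsds3, although 8 lower and 1 higher had an unadjusted p under 0.05.

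In Δxbp1 at SP 5 of the 53 rose (9.43%) and 6 fell (11.3%), shares near the 12.3% and 11.5% of all genes. ECM29 (1.17), CUZ1 (0.90), PDR1 (1.16), UBR2 (0.70) and UBC8 (0.68) rose, and RPS31 (-1.74), RPL40B (-1.45) and RPL40A (-1.02), whose ubiquitin is fused to a ribosomal protein, FUB1 (-1.25), UBC6 (-0.75) and HRD1 (-0.72) fell. In Δxbp1 at DS and in Δisw2 at both phases limma called 0 of the 53, with 1, 0 and 2 at an unadjusted p under 0.05 in Δxbp1 at DS, Δisw2 at DS and Δisw2 at SP.

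In wild type 5 of the 53 were higher at SP than at DS, FUB1 (1.66), HSF1 (1.17), UFD1 (0.76), UFD4 (0.71) and UBR1 (0.69), and 3 were lower, PDR1 (-0.92), ECM29 (-0.78) and UBC7 (-0.64). These shares, 9.43% and 5.66%, are near the 7.85% and 8.30% of all genes. By the interaction term the effect of Δtup1 was lower at SP than at DS for FUB1 (-1.43, SE 0.39, adjusted p = 0.0423) and higher for PDR1 (1.56, SE 0.29, adjusted p = 0.00729). The effect of Δsds3 was likewise higher at SP for PDR1 (1.39, SE 0.29, adjusted p = 0.0221). These were the only such calls in the 53 genes, while the proteasome genes themselves gave none.

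Subunits that fell and subunits that did not were found among those with the element of Rpn4. In Δtup1 at SP 11 of the 27 subunits with GGTGGCAAA fell and 1 rose, and 1 of the 5 without it fell, PUP1, which holds AGTGGCAAA. With any first base, 12 of 30 fell (median log2 fold change -0.49) and 0 of 2 without it, RPN10 and RPN13 (median 0.15). In Δsds3 at SP 10 of the 27 and 4 of the 5 fell, or with any first base 13 of 30 and 1 of 2, RPN13. RPT6, which rose in Δtup1, and RPT1, which fell, both carry GGTGGCAAA, as do PRE6 and SCL1, which had estimates of opposite sign in Δsds3. With 5 subunits lacking GGTGGCAAA, of which 3 hold AGTGGCAAA, and 2 lacking both, these counts are a description.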

How the data were processed

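The authors prepared poly-A selected libraries, read 37 cycles from either end, aligned the pairs with Bowtie2 to the sacCer3 build, and tested deletions against wild type with DESeq2. The counting program is not given in the sources used here. The deposited tables give each gene a signal per library, which is the read count after the authors divided it by that library's DESeq2 size factor, and the authors' own log2 fold changes, errors, Wald scores and p-values, which were not used. Division by the step of each column gave whole reads for 100% of values within 0.1 reads, and the wild type reads were identical in the 4 tables of a phase. Column names end in 1 and 2 at DS and 1 and 3 at SP, and library A is the one ending in 1.

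Tests used limma 3.58.1 in R 4.3.3 with a mean-variance trend on log2 of normalized count plus 1, on the 4 libraries of a table, with low counts removed by edgeR 4.0.16 (filterByExpr). Calls required at least 1.5-fold and an adjusted p under 0.05 (Benjamini-Hochberg over all genes tested), and counts of higher or lower genes follow this rule. Wild type phases and interaction terms came from a joint fit of 20 libraries, with size factors computed by the median-ratio method that DESeq2 uses. TPM was computed over 5876 genes with a coding length. Sites were read from the R64 genome of RefSeq in Python 3.11.15. The alternatives were TMM and total-read scaling, a pseudocount of 8, no filter, DESeq2 1.42.0 and edgeR's quasi-likelihood test. Further ones were a replicate block, all libraries of a phase in 1 fit, and leaving out each library. Scripts were tested on simulated data.

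In each comparison, library values are given for RPN4 and for up to 3 called genes with the largest change in each direction, and up to 3 called genes in each direction per pathway list are named. Some genes beyond this were chosen after their values were seen. The members and lists were chosen with earlier results of these data known.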

Additional observations from a re-analysis of the deposited data

How the results depend on the processing

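Depth limits library B at SP most, with 2543155 reads at the lowest. With 2 libraries per group, each call leans on a spread shared over genes, and the effect of single libraries is wide. In Δtup1 at DS the count of genes that fell went from 5 to 14 with scaling by total reads, to 8 with DESeq2, and to 1 with the replicate block or with all libraries of the phase in 1 fit. In Δsds3 at DS it went from 0 to 2 with DESeq2, 5 with the replicate block and 10 with all libraries of the phase in 1 fit, where the count over all genes went from 54 to 297, 462 and 680. In Δsds3 at SP the count higher went from 0 to 1 with TMM, edgeR or all libraries of the phase, and to 4 with total reads, where the count lower was 2. The cause was not tested, beyond the shift of all genes under total reads.

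Leaving out each library in turn gave 0 to 1 genes lower in Δtup1 at DS, 7 to 15 in Δtup1 at SP, 0 to 1 higher and 0 to 15 lower in Δsds3 at DS, 0 to 1 higher in Δsds3 at SP, 2 to 5 higher in Δxbp1 at SP and 0 to 1 lower between the wild type phases. The Δsds3 interaction ranged over 0 to 10 higher and 0 to 5 lower. The RPN4 estimate changed sign in fits where it was never called in the full data: it ranged from -0.33 to 0.46 between the wild type phases, from -0.34 to 0.18 in Δisw2 at DS, from -0.52 to 0.25 in Δisw2 at SP, from -1.59 to 0.13 in Δsds3 at DS, from -0.17 to 0.59 in Δsds3 at SP, from -0.17 to 0.58 in Δxbp1 at SP, from -0.45 to 0.34 in the Δisw2 interaction and from -0.41 to 0.38 in the Δxbp1 interaction. It also turned positive in the Δisw2 interaction with total reads (0.0113) and in the Δxbp1 interaction with TMM (0.0292) and total reads (0.20). Of the recomputed values that were tallied, 972 kept their direction and side of the threshold or their size, 57 moved and 18 changed sign. A further 72, members called in the main fits, were no longer called, and 4 became called. Gained calls were tallied for RPN4 only. Other members that gained a call are not among the 4. In Δsds3 at DS, 10 were called lower with all libraries of the phase in 1 fit, against 0 in the main fit.

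The labels do not say that a replicate number marks a shared culture or day, so with 2 numbers per group the libraries were not treated as paired. Deviations of same-numbered libraries correlated at -0.07 (Δtup1), 0.27 (Δsds3), 0.48 (Δxbp1) and 0.59 (Δisw2) at DS and at 0.24, 0.23, 0.36 and 0.17 at SP. At SP the number also goes with depth, library A being the deeper in every group. With the replicate block at SP all 14 called members of Δtup1, all 14 of Δsds3 and all 5 of Δxbp1 were still called, and the block changed the counts of called members only as given above.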
